A study of Mus musculus with 6 samples.

Results

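The extracellular matrix genes described here are 45 genes for collagens, laminin chains, the glycoproteins and proteoglycans bound to them, and the enzymes that modify and crosslink collagen. They were taken from a list of names that was chosen with earlier results of these data known. Counts of these genes set beside all genes therefore describe the list and do not test it. Each gene was represented by the brightest of its probes that had a detection p-value under 0.05 on at least 3 of the 6 arrays. The detection p-value is the scanner software's measure of signal above background. Of the 45 genes, 27 were measured by this rule, among 9348 genes measured in all. A named probe was present but missed the filter for 14 genes. Col12a1, Lama3, Spp1 and Loxl2 had no probe named for them in the annotation used and were not analysed here.

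Basement membranes are thin sheets on which epithelial cells rest. Laminin trimers and type IV collagen each form a network there, nidogens and the heparan sulfate proteoglycans perlecan and agrin link them, and type VII collagen anchors the sheet to the stroma. The interstitial matrix holds fibrils of type I, III and V collagen together with fibronectin, and much of it is made by fibroblasts. Carcinoma cells of the mammary gland also make matrix proteins, including basement membrane proteins and the matricellular proteins (tenascin C, SPARC, thrombospondins), which alter adhesion rather than bear load. MMP3 (stromelysin-1) is a secreted metalloproteinase whose known substrates include laminin, fibronectin and type IV collagen.

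The cells were 4T1, a mammary carcinoma line of BALB/c mouse origin, grown in culture in RPMI-based medium. Total RNA was hybridised to Illumina MouseWG-6 bead arrays from 3 cultures carrying a scrambled control vector (4T1-SC) and 3 cultures carrying a short hairpin RNA against Mmp3 (4T1-MMP3lo), 1 array each. Both populations were stably transfected and selected with an antibiotic. The series describes each set as biological triplicates. The titles of the 4T1-MMP3lo samples share the suffix Cl1, which the labels do not explain, so it could name a clone of cells, from which all 3 cultures would descend, or a hairpin construct. Each title also ends in a date, and every date was given to 1 culture of each group. The cultures of the first date are replicate 1, and those of the later dates are replicates 2 and 3. What was done on each date is not stated. The comparisons ask whether the matrix genes differed between the groups, and whether they differed between the first and the later dates.

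Mmp3, the targeted gene, did not pass the test between the groups on these arrays. On the log2 scale its level was 11.52, 12.98 and 13.04 in 4T1-SC (replicates 1, 2, 3) and 10.64, 13.40 and 13.33 on the arrays labelled 4T1-MMP3lo, a difference of −0.06 (SE 0.74, adjusted p = 0.99 from limma). The first-date array was the lowest in each group, and the groups overlapped. Since these arrays did not show a lower Mmp3 level at every date, the groups are named by their labels. Replicate 1 of 4T1-SC stood apart from its own group: its correlation across genes was 0.938 and 0.953 with the others of that group. It was 0.978, 0.96 and 0.962 with replicates 1, 2 and 3 of the other group (Pearson, and genes are not independent replicates). Replicate 1 of the other group correlated with the others of its own group at 0.978 and 0.981. The arrays had median intensities between 96.6 and 112.6 and detected between 36.93% and 38.75% of their probes. Of the 13 epithelial markers, 11 were measured, while Epcam and Krt5 were detected on no array. Of 10 endothelial and 9 named leukocyte markers, 5 and 6 were detected on no array, among them Pecam1, Vwf, Ptprc and Itgam. The endothelial markers Kdr and Egfl7 and the leukocyte markers Csf1r, Cd3e and Cd4 passed the filter.

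Between the groups, type VII collagen was the matrix gene that changed. Col7a1 fell 3.24-fold on the arrays labelled 4T1-MMP3lo, and none of the 27 genes rose. This is 1 gene called at an adjusted p under 0.05 out of 27, against 1.09% of all genes tested (0.492% fell and 0.599% rose). At an unadjusted p under 0.05 there were 10 of 27, against 12.2% of all genes. The groups did not overlap for 8 of the 27 (29.6%), against 17.7% of all genes. Col4a2, Col7a1, Agrn and Fbln2 lay lower on every array labelled 4T1-MMP3lo (8.07% of all genes), and Col18a1, Fbln1, Sparc and Loxl1 lay higher (9.62%). Fbln1, Loxl1 and Tgfbi passed the detection filter only with the arrays labelled 4T1-MMP3lo, all 3 of which detected them. In this and every other count the filter itself therefore favours a higher level there. The difference was negative for 14 of the 27, against 47.7% of all genes, and its median was −0.06 on the log2 scale, beside 0.02 over all genes. These are bulk samples, in which fewer cells of a type and less RNA per cell cannot be told apart. With the date as a block, 3 genes were called: Col7a1 (adjusted p = 0.0177) and Tnc (adjusted p = 0.0373) fell and Loxl1 (adjusted p = 0.0213) rose, against 2.08% of all genes (0.824% fell and 1.25% rose). Leaving out 4T1-SC replicate 1 gave 8 called genes, with 10.7% of all genes called. Leaving out each other array in turn gave 0, with 0.0% to 0.727% of all genes called.

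Between the dates, most matrix genes lay lower at the first date. The difference of the first-date arrays from the mean of the later dates, with the group in the fit, was negative for 25 of the 27 genes (92.6%), against 47.8% of all genes. Its median was −0.52 on the log2 scale, beside 0.02 over all genes. Tnc and Ecm1 fell at an adjusted p under 0.05, which is 2 of 27 against 0.481% of all genes (0.396% fell and 0.0856% rose), and none rose. At an unadjusted p under 0.05 there were 17 of 27, against 21.8% of all genes. In both groups, the first-date array lay below both later arrays for 20 of the 27 (74.1%), against 21.9% of all genes. Loxl1 was the one gene that lay above them in both groups, which 25.3% of all genes did. A difference of −1 or lower was found for 8 of the 27 (29.6%) and for 2.83% of all genes. Each date holds 1 array of each group, so the first date rests on 2 arrays.

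**Figure D1:**
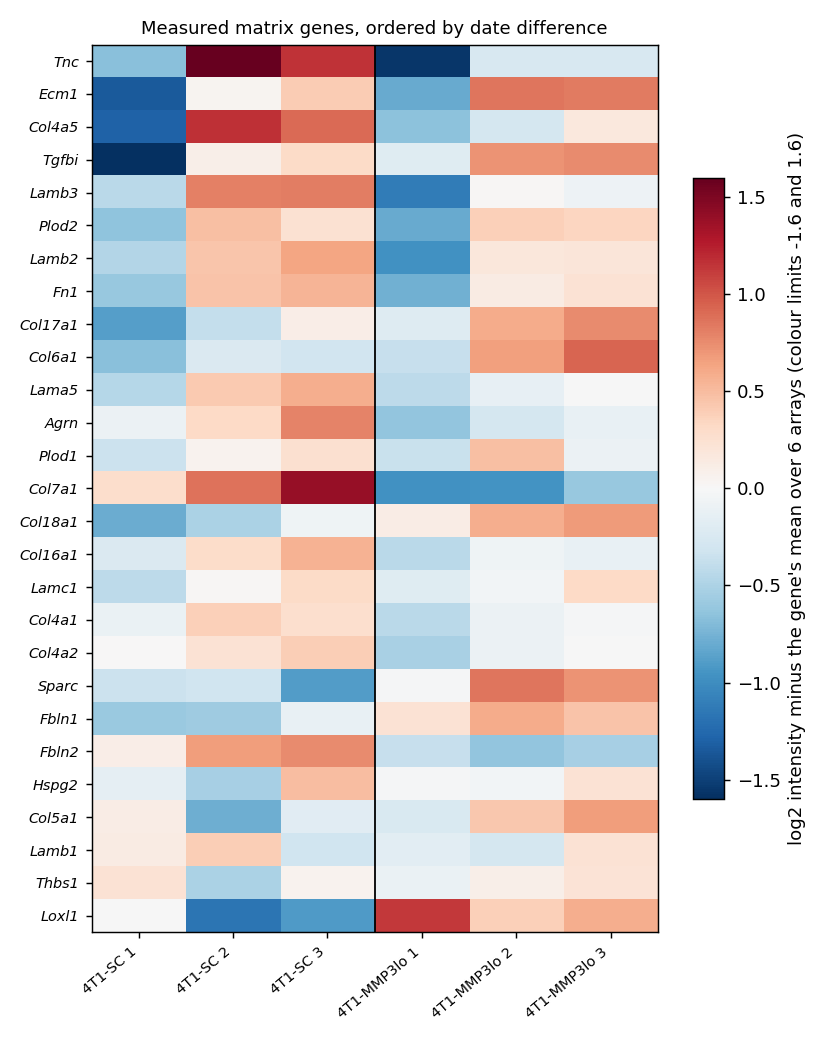
Heat map of the 27 measured matrix genes (rows, ordered by the date difference) on the 6 arrays (columns). Colour is the log2 intensity minus the gene's mean over the 6 arrays, with colour limits of −1.6 and 1.6. The columns of replicate 1 of both groups are blue for most genes, with median deviations of −0.42 in 4T1-SC and −0.38 on the arrays labelled 4T1-MMP3lo, while the other 4 arrays lie at 0.10 to 0.31.

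Among the fibrillar collagens, which form the fibrils of connective tissue, only Col5a1 passed the filter. Col5a1 encodes a chain of type V collagen, which controls fibril assembly. Its log2 intensity was 8.60, 7.70 and 8.31 in 4T1-SC and 8.24, 8.92 and 9.15 on the arrays labelled 4T1-MMP3lo. The groups overlapped, with a difference of 0.57 (SE 0.31, adjusted p = 0.527). The first date was higher than the later dates in 4T1-SC and lower on the arrays labelled 4T1-MMP3lo. Col1a1, the main chain of type I collagen, and Col5a2 were detected on 0 arrays, and Col1a2 and Col3a1 on 1.

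The network collagens measured were 3 chains of type IV collagen, the sheet-forming collagen of basement membranes, and 1 chain of type VI collagen, which forms beaded filaments. None passed the test between groups. Col6a1 measured 7.43, 7.86 and 7.79 in 4T1-SC and 7.72, 8.75 and 9.02 on the arrays labelled 4T1-MMP3lo, and the lowest array of the second group lay within the range of the first. The difference was 0.80 (SE 0.33, adjusted p = 0.388). Its partner chain Col6a2 was detected on 1 array. Col4a5 measured 5.87, 8.33 and 8.07 in 4T1-SC and 6.51, 6.88 and 7.33 on the arrays labelled 4T1-MMP3lo. Replicate 1 of 4T1-SC was the lowest of the 6 arrays, and the spread in 4T1-SC was wide (SD 1.35). Its group difference was −0.52 (SE 0.59, adjusted p = 0.8) and its date difference −1.46 (SE 0.39, adjusted p = 0.125), and a second probe had a date difference of −1.66.

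Col4a1 and Col4a2 encode the chains that make up the commonest type IV collagen trimer, and they are neighbours transcribed in opposite directions on mouse chromosome 8. Their listed starts lie 21 bases apart, and their promoter windows share 78 bases, and that of Col4a1 is shown. It runs from 250 bases before the start to 50 bases after it (chr8:11312777-11313076, minus strand of GRCm38.p6, from RefSeq). Capitals mark a CCAAT box (CCAAT) at position −145 and a GC box (GGGCGG) at position 9, each read on the strand opposite to the one printed. Positions are those of the first capital letter, with the start as 0. The last 78 bases printed are also in the Col4a2 window. The GC box lies in that stretch and the CCAAT box does not.
Col4a1: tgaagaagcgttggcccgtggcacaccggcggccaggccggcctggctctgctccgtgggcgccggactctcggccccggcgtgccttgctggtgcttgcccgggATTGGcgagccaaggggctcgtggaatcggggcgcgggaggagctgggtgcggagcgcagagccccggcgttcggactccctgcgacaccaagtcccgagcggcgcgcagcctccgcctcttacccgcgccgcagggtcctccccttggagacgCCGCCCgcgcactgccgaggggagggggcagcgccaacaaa
The levels of the genes were measured by 1 probe each. Col4a1 measured 11.24, 11.72 and 11.61 in 4T1-SC and 10.92, 11.25 and 11.33 on the arrays labelled 4T1-MMP3lo. Col4a2 measured 10.07, 10.29 and 10.45 against 9.54, 9.96 and 10.05. In both genes replicate 1 was the lowest array of each group. The group differences were −0.36 (SE 0.21) for Col4a1 and −0.42 (SE 0.21) for Col4a2, with adjusted p = 0.56 and 0.478 from limma. The date differences were −0.40 and −0.38 (SE 0.18 each).

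Type VII collagen forms the anchoring fibrils that tie the basement membrane to the tissue beneath. Col7a1 lies on chromosome 9, and its promoter window (chr9:108953336-108953635, plus strand of GRCm38.p6, from RefSeq) is shown because it is the gene called between the groups. Capitals mark a CCAAT box at position −249, on the opposite strand, and a GC box at position −61.
Col7a1: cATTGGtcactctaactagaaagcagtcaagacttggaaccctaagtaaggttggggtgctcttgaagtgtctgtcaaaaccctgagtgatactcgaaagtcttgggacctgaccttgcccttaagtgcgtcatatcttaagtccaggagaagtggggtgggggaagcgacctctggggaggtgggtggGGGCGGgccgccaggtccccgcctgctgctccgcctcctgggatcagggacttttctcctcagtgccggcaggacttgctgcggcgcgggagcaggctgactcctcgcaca
Over all 32851 windows of this length in the table, 35.7% held a GC box and 37.4% a CCAAT box on either strand. A match describes the letters and does not show that a factor binds there.

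Col7a1 measured 9.60, 10.19 and 10.71 in 4T1-SC and 8.35, 8.36 and 8.71 on the arrays labelled 4T1-MMP3lo, or 10.17 ± 0.56 and 8.47 ± 0.20 (SD, n = 3 each). The groups did not overlap. The log2 difference was −1.69 (SE 0.29, 95% interval −2.35 to −1.03), with an adjusted p of 0.039 from limma. Between cultures of the same date it was −1.25, −1.83 and −2.01, so the gene was lower in 3 of 3 pairs. A second Col7a1 probe had a group difference of −1.46 (SE 0.25). The call held without 4T1-SC replicate 1 (−1.98, adjusted p = 0.00115) and was lost without any one of the other 5 arrays, where the difference was −1.81 to −1.42 and the adjusted p 0.108 to 0.223. It was also lost with no background correction or the authors' log2 table (−1.49, adjusted p = 0.0905), an offset of 50 (0.0611), a median shift (0.0566), no detection filter (0.128) and detection on all 6 arrays (0.0509). Beside this, the group difference was negative for all 11 measured epithelial markers, against 47.7% of all genes. It ran from −1.95 to −0.04, with a median of −0.84. Cldn4, Cldn7 and Esrp1 fell, by 1.82, 1.62 and 1.95, which is 3 of 11 against 0.492% of all genes. The summed level of the measured epithelial markers was 25052 to 35901 in 4T1-SC and 17118 to 21293 on the arrays labelled 4T1-MMP3lo, on the linear intensity scale. Their part in the Col7a1 result was not tested.

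None of the other collagens of the class was called. Col18a1, the multiplexin collagen of basement membranes whose C-terminal fragment is endostatin, measured 10.48, 10.77 and 11.20 in 4T1-SC and 11.39, 11.85 and 11.95 on the arrays labelled 4T1-MMP3lo. The groups did not overlap, and the difference was 0.92 (SE 0.25, adjusted p = 0.154), with 0.47 and 0.72 for the other probes of the gene. Col17a1, the transmembrane collagen of hemidesmosomes, measured 5.26, 5.76 and 6.25 against 5.93, 6.73 and 6.90. Its groups overlapped, with a difference of 0.77 (SE 0.33, adjusted p = 0.407), and 0.34 without background correction. In the main fit its date difference of −0.81 (SE 0.19, adjusted p = 0.0996) was the largest of the class. Over the alternatives run, the date difference of Col17a1 was −0.92 to −0.35. Col16a1, a fibril-associated collagen, differed by −0.41 between groups and −0.50 between dates, with neither past the test.

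**Figure D2:**
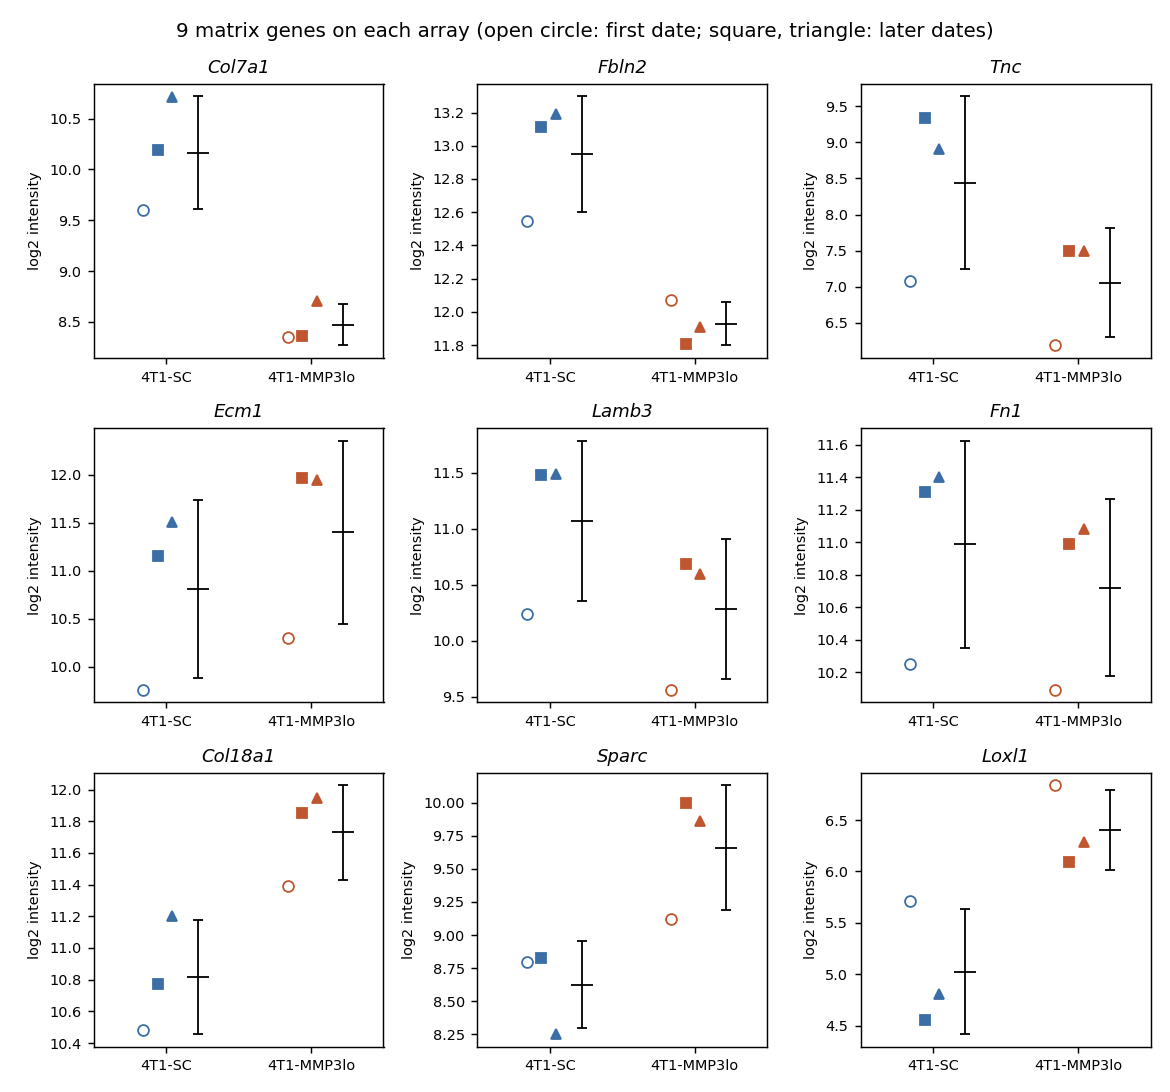
Log2 intensity of 9 matrix genes on each of the 6 arrays, by group. Open circles are the first date, squares and triangles the later dates, and the dash with its bar is the mean with the SD of 3 arrays. Col7a1 and Fbln2 lie lower and Col18a1, Sparc and Loxl1 higher on every array labelled 4T1-MMP3lo, while Tnc, Ecm1, Lamb3 and Fn1 have their lowest array at the first date in both groups.

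Laminins are trimers of 1 alpha, 1 beta and 1 gamma chain. The 5 chains measured were Lama5, Lamb1, Lamb2, Lamb3 and Lamc1, and none passed the test between groups. Lamb3, the beta chain of laminin-332 of epithelial basement membranes, measured 10.24, 11.48 and 11.49 in 4T1-SC and 9.56, 10.69 and 10.60 on the arrays labelled 4T1-MMP3lo. It was lower in each of the 3 pairs, by −0.68, −0.80 and −0.88, yet the groups overlapped, as 4T1-SC replicate 1 lay below 2 of the arrays of the other group. The group difference was −0.79 (SE 0.42, adjusted p = 0.514 from limma, 0.0763 with the date as a block). Its date difference of −1.16 (SE 0.18), 2.24-fold lower at the first date, had an adjusted p of 0.0562.

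Lamb2, the beta chain of laminins of muscle, nerve and kidney basement membranes, measured 6.06, 6.98 and 7.17 in 4T1-SC and 5.56, 6.71 and 6.73 on the arrays labelled 4T1-MMP3lo. The first date was again lowest in both groups, with a date difference of −1.09 (SE 0.18, adjusted p = 0.0641), while the group difference was −0.41 (SE 0.39). Over the alternatives run, the date difference of Lamb2 was −1.23 to −0.52. Lama5, the alpha chain of laminin-511, had date and group differences of −0.65 and −0.36, and Lamc1, the commonest gamma chain, −0.46 and 0.06. Lamb1 was near background at 4.86 to 5.57 and differed by −0.02 and −0.14. Lama4, the alpha chain of vascular and muscle laminins, was detected on 2 arrays, 1 of each group, and missed the filter.

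The basement membrane linkers were measured through the heparan sulfate proteoglycans Hspg2 (perlecan) and Agrn (agrin), since the nidogen genes Nid1 and Nid2 were detected on 0 arrays. Agrn measured 11.46, 11.87 and 12.34 in 4T1-SC and 10.92, 11.27 and 11.43 on the arrays labelled 4T1-MMP3lo. The highest array of the second group lay just below the lowest of the first. The difference was −0.69 (SE 0.26, adjusted p = 0.339) and the date difference −0.54 (SE 0.19, adjusted p = 0.18). Hspg2 measured 9.0, 8.61 and 9.64 against 9.13, 9.10 and 9.38, so its groups overlapped fully, with differences of 0.12 between groups and −0.12 between dates.

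Among the adhesive glycoproteins, the 2 fibulins differed in opposite directions between the groups, and neither passed the test. Fbln2 (fibulin-2), which binds laminin, nidogen and fibronectin, measured 12.55, 13.11 and 13.19 in 4T1-SC and 12.07, 11.81 and 11.91 on the arrays labelled 4T1-MMP3lo. The difference was 2.03-fold, −1.02 on the log2 scale (SE 0.22, adjusted p = 0.0816), and −1.11 for a second probe. Fbln1 (fibulin-1) was near background, at 4.57, 4.60 and 5.05 in 4T1-SC, where it was detected on 1 of 3 arrays, and at 5.40, 5.76 and 5.62 on the arrays labelled 4T1-MMP3lo. Its difference was 0.85 (SE 0.21, adjusted p = 0.12), and 0.27 without background correction. The groups did not overlap for either fibulin.

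Fn1 (fibronectin) and Tgfbi (a fibronectin- and collagen-binding protein induced by TGF-beta) had larger differences between dates than between groups, and neither passed the main test of either. Both were called with the later dates as 1 level in the fit. Fn1 measured 10.25, 11.31 and 11.40 in 4T1-SC and 10.09, 10.99 and 11.08 on the arrays labelled 4T1-MMP3lo. It was 2.04-fold lower at the first date (date difference −1.03, SE 0.18, adjusted p = 0.074), with a group difference of −0.27 (SE 0.38). Tgfbi measured 4.51, 6.26 and 6.47 against 5.97, 6.89 and 6.92, and was not detected on 4T1-SC replicate 1. Its date difference was −1.40 (SE 0.25, adjusted p = 0.0757) and its group difference 0.84 (SE 0.51, adjusted p = 0.578). Without background correction these were −0.56 and 0.35, and without 4T1-SC replicate 1 they were −0.94 and 0.23.

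The matricellular class held both genes called between the dates. Tnc encodes tenascin C, a matrix glycoprotein that is raised in wounds and tumours, and Ecm1 encodes a secreted glycoprotein whose human form binds perlecan and fibulin-1. Their promoter windows are shown for that reason, on the minus strand of GRCm38.p6 from RefSeq, at chr4:64046966-64047265 for Tnc, whose upstream-most of 2 listed starts was used, and at chr3:95739520-95739819 for Ecm1. Capitals mark GC boxes (position −167 in Tnc and −42 in Ecm1), TATA boxes (TATAAA, position −126 in Tnc and −27 in Ecm1) and, in Ecm1, an AP-1 site (TGANTCA) at position −64.
Tnc: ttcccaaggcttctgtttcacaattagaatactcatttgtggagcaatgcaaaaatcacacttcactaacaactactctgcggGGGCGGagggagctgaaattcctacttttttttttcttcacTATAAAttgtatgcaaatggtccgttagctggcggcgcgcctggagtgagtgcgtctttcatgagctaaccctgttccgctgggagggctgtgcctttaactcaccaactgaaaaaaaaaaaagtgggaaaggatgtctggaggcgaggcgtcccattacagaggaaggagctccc
Ecm1: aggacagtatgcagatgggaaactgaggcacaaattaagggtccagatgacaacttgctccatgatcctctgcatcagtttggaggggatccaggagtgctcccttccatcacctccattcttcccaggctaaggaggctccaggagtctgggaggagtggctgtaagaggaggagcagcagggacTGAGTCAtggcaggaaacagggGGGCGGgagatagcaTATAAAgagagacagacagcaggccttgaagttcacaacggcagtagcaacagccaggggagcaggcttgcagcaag
The TATA box letters were in 13.6% and the AP-1 letters in 7.81% of all windows, both strands searched. Among the 22 measured matrix genes with a window, taken as 1 window per gene, 16 held a GC box, 8 a CCAAT box, 4 a TATA box and 2 an AP-1 site. With 1 window for each of 27025 genes, the shares were 35.9%, 38.0%, 14.2% and 7.92%. Those genes include ones not measured here, and no test was made. The CCAAT letters were not found in the Tnc or the Ecm1 window.

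Tnc measured 7.08, 9.34 and 8.90 in 4T1-SC and 6.19, 7.49 and 7.49 on the arrays labelled 4T1-MMP3lo. The first-date array was the lowest of each group, and the pairs of the same date differed by −0.89, −1.86 and −1.41. Tnc fell 3.19-fold at the first date (date difference −1.67, SE 0.24, adjusted p = 0.0486 from limma). The call held without the array labelled 4T1-MMP3lo replicate 1 (adjusted p = 0.00885) or replicate 2 (0.0382) and was lost without any one of the other 4 arrays (0.0791 to 0.298). It was also lost with no background correction (−1.13, adjusted p = 0.0948), an offset of 50 (0.0608), a median shift (0.0965), array weights (0.0572) and no detection filter (0.156). The group difference was −1.38 (SE 0.59, adjusted p = 0.404), and with the date as a block it passed the test (adjusted p = 0.0373). Of the other 2 probes kept for Tnc, one gave −1.47 between groups and −1.87 between dates, and the other, near background, gave 0.01 and −0.55.

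Ecm1 measured 9.76, 11.15 and 11.51 in 4T1-SC and 10.30, 11.96 and 11.94 on the arrays labelled 4T1-MMP3lo. Both first-date arrays lay below all 4 later arrays. Ecm1 fell 3.05-fold at the first date (date difference −1.61, SE 0.19, adjusted p = 0.03 from limma), with −1.33 for a second probe. Leaving out 1 array at a time gave −1.69 to −1.53. The adjusted p stayed under 0.05 without 4T1-SC replicate 2 (0.0439) or the array labelled 4T1-MMP3lo replicate 1 (0.0177) and was 0.0513 to 0.274 without any one of the others and 0.124 with no detection filter. Between groups Ecm1 differed by 0.59 (SE 0.56, adjusted p = 0.749).

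Sparc encodes osteonectin, a collagen-binding protein that is often raised in stromal and mesenchymal cells. It measured 8.80, 8.83 and 8.25 in 4T1-SC and 9.12, 10.00 and 9.86 on the arrays labelled 4T1-MMP3lo, without overlap. The difference was 1.04 (SE 0.28, adjusted p = 0.155), with 0.62 and 0.84 for its other probes. Thbs1 (thrombospondin-1, an inhibitor of angiogenesis) differed by 0.14 between groups and 0.10 between dates. Thbs2 and Postn (periostin) were detected on 0 arrays. So were Bgn (biglycan) and Vcan (versican), while Dcn (decorin) was detected on 2 arrays, so that none of the 3 chondroitin or dermatan sulfate proteoglycans was measured.

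The enzymes measured were Loxl1, a lysyl oxidase that crosslinks elastin and collagen, and the lysyl hydroxylases Plod1 and Plod2. Loxl1 measured 5.71, 4.55 and 4.81 in 4T1-SC, where it was detected on 2 of 3 arrays, and 6.84, 6.09 and 6.29 on the arrays labelled 4T1-MMP3lo. Every array of the second group lay higher, by 2.61-fold on average (1.38, SE 0.33, adjusted p = 0.115), and the difference was 0.52 without background correction. With the date as a block Loxl1 rose (adjusted p = 0.0213). It was also the gene whose first-date array was the highest in each group, with a date difference of 0.84 (SE 0.19, adjusted p = 0.0995). Plod2, which hydroxylates the telopeptides of fibrillar collagen, measured 8.41, 9.54 and 9.30 against 8.25, 9.43 and 9.40. Its groups differed by −0.06 and its dates by −1.09 (SE 0.18, adjusted p = 0.0654), 2.13-fold lower at the first date. Plod1 differed by 0.02 and −0.52. Lox was detected on 0 arrays.

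**Figure D3:**
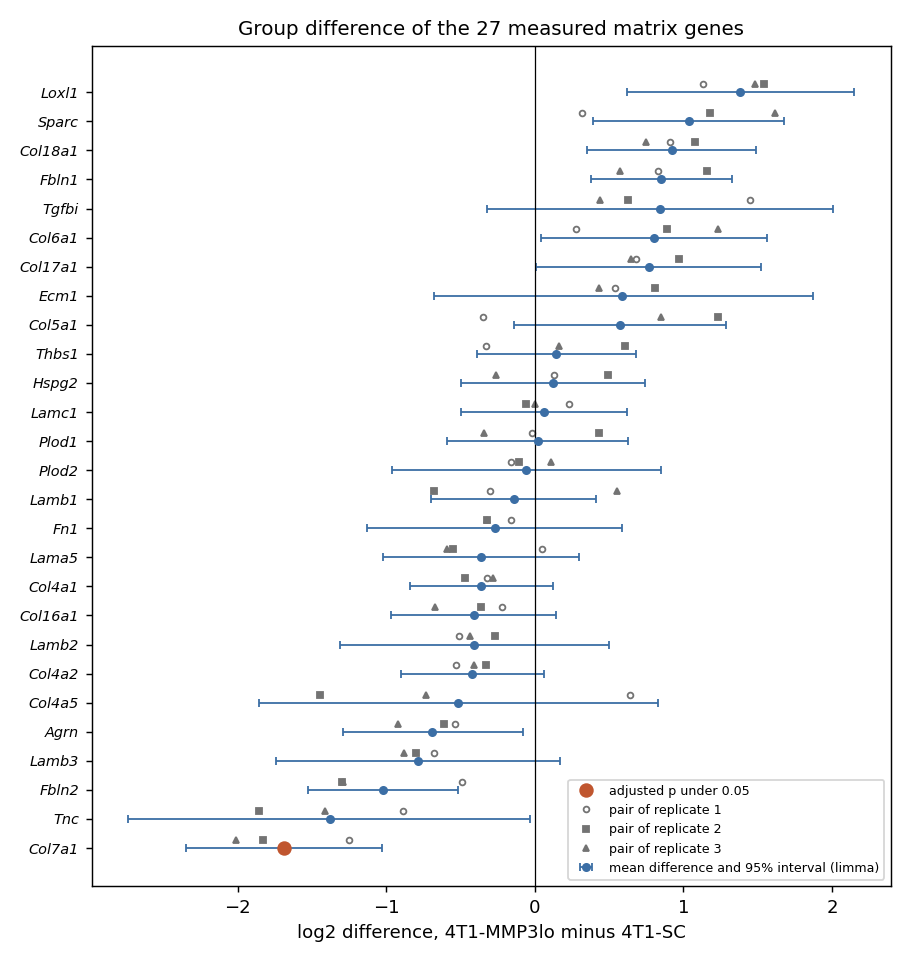
Log2 difference of the arrays labelled 4T1-MMP3lo from 4T1-SC for the 27 measured matrix genes (rows, ordered by the difference). Points are the mean difference with its 95% interval from limma, the larger point is the gene with an adjusted p under 0.05, and small grey symbols are the 3 pairs of the same date. The differences run from −1.69 for Col7a1 to 1.38 for Loxl1, and 14 of the 27 are negative.

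The date differences of the classes were not tested against each other. They ran from −1.46 to −0.38 for the network collagens, −1.16 to −0.02 for the laminin chains and −1.67 to 0.10 for the matricellular genes. These ranges overlapped. The date difference was −0.10 for Col5a1, the one fibrillar collagen measured, which lay higher at the first date in 4T1-SC. The median date difference was −0.59 for the 4 network collagens, −0.51 for the 4 anchoring, fibril-associated and transmembrane collagens, −0.65 for the 5 laminin chains, −0.33 for the 2 heparan sulfate proteoglycans, −0.65 for the 4 adhesive glycoproteins, −0.94 for the 4 matricellular genes and −0.52 for the 3 enzymes. Within 4T1-SC alone, 22 of the 27 genes had a negative date difference (median −0.60), and among the arrays labelled 4T1-MMP3lo 25 of 27 did (median −0.51). Each of these sets 1 first-date array against 2 later arrays, and the one of 4T1-SC is the array that stood apart, so they are given without a test. Without 4T1-SC replicate 1 the median date difference of the 27 was −0.51 with 0 genes called, and without the array labelled 4T1-MMP3lo replicate 1 it was −0.60 with 10 called, where 11.1% of all genes were called. Taking the later dates as 1 level in the fit, 7 of the 27 fell, namely Lamb2, Lamb3, Fn1, Tgfbi, Tnc, Ecm1 and Plod2, against 3.2% of all genes (2.11% fell).

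**Figure D4:**
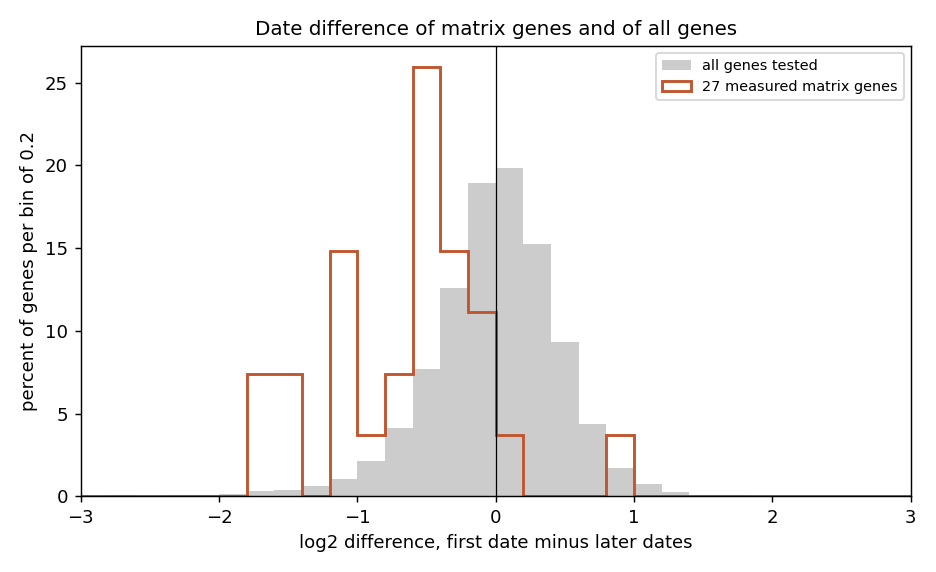
Distribution of the log2 difference of the first date from the later dates, with the group in the fit. Grey bars are all 9348 genes tested and the orange outline the 27 measured matrix genes, each as a percentage of its own set per bin of 0.2. The matrix genes lie mostly below 0, with a median of −0.52 against 0.02 for all genes.

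The difference between dates was then compared between the groups. No matrix gene passed that test from limma, and 6 of 27 had an unadjusted p under 0.05, against 0.877% and 16.3% of all genes. Col4a5 had the lowest adjusted p, 0.109. Its date difference was −2.33 in 4T1-SC and −0.59 on the arrays labelled 4T1-MMP3lo, so that they differed by 1.73 (SE 0.37). Col5a1 went the other way, with 0.60 in 4T1-SC and −0.80 on the arrays labelled 4T1-MMP3lo (difference −1.39, SE 0.41, adjusted p = 0.198). The first-date cells of this comparison hold 1 array each.

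At the later dates alone, a contrast of the same fit, 6 matrix genes rose on the arrays labelled 4T1-MMP3lo and 5 fell, where 5.48% of all genes rose and 5.35% fell (10.8% in all). Col7a1 (−1.92), Tnc (−1.63), Fbln2 (−1.29), Col4a5 (−1.09) and Lamb3 (−0.84) fell. Loxl1 (1.51), Sparc (1.40), Col6a1 (1.06), Col5a1 (1.04), Col18a1 (0.92) and Fbln1 (0.86) rose. Of the genes that rose, Loxl1 and Fbln1 passed the detection filter only with the arrays labelled 4T1-MMP3lo, where they were higher. The adjusted p of these 11 genes ran from 0.00429 to 0.0444. This contrast takes 2 arrays of each group and leaves the first-date arrays out of the difference.

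Among the other genes of the same pathways, 1 was called between groups, where 1.09% of all genes were, and none between dates. Of 27 other collagen and laminin chains, 24 had a named probe and 2 were measured, Col5a3 and Col8a1, with none called in either comparison. Of 45 other matrix glycoproteins and proteoglycans, 13 were measured, with a median group difference of 0.24 and a median date difference of −0.15, and none was called by group or by date. Among them Ccn1, a matricellular integrin ligand, was called in the comparison of dates between groups (−2.47, SE 0.34, adjusted p = 0.0367), as 0.877% of all genes were. That comparison holds 1 first-date array of each group. Ccn1 measured 9.77, 8.06 and 8.44 in 4T1-SC and 9.45, 10.47 and 10.32 on the arrays labelled 4T1-MMP3lo. Of 28 other enzymes and chaperones of collagen synthesis, 19 were measured, with medians of 0.17 and −0.29 and none called. Of 15 hemidesmosome and basement membrane receptor genes, 14 were measured, with medians of −0.06 and −0.03. Fermt1 (kindlin-1, an integrin activator of epithelial cells) fell by 1.27 on the arrays labelled 4T1-MMP3lo (SE 0.21, adjusted p = 0.0329), from 10.73, 10.50 and 10.85 to 9.74, 9.19 and 9.34.

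Fibroblasts make much interstitial matrix, so their markers were measured in the same arrays. Of 11 fibroblast markers, 2 were measured, and 8, Cd34, Des, Dpt, Fap, Lum, Pdgfrb, Tcf21 and Thy1, were detected on no array. S100a4 rose by 1.86 on the arrays labelled 4T1-MMP3lo (adjusted p = 0.0109), and Pdgfra differed by 0.93 (adjusted p = 0.47). The summed level of both was 162 to 363 in 4T1-SC and 422 to 740 on the arrays labelled 4T1-MMP3lo, and 162 to 422 at the first date against 311 to 740 at the later dates. S100a4 is also made by carcinoma cells. The endothelial markers measured, Kdr and Egfl7, summed to 350 to 660 in 4T1-SC and 609 to 890 in the other group, and the leukocyte markers to 86 to 93 and 87 to 93. The part of these markers in the matrix results was not tested.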

How the data were processed

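The authors deposited scanner intensities on a linear scale for 45281 probes on 6 arrays, with no background subtraction or scaling visible, and a detection p-value was deposited beside each intensity. They also deposited log2 values of the same arrays, which are quantile-normalized log2 intensities without background correction (rank correlation 1 with each array). The software is not given in the sources used here. Background was corrected and arrays were quantile normalized with neqc (limma 3.58.1, R 4.3.3) at an offset of 16, which gives log2 values. The array annotation gave 1 symbol to 34885 probes, several to 18 and none to 10378. Symbols were updated by gene identifier (34807) or accession (11), 67 were kept, and 10 changed. Probes with a detection p under 0.05 on 3 or more arrays were kept, and the brightest stood for its gene. Several kept probes were present for 13 of the 27 genes, with both signs for Lamc1 and Tnc between groups and Col7a1 and Sparc between dates.

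All 9348 genes were fitted with lmFit and eBayes. Adjustment over all of them was by the Benjamini-Hochberg method. "Rose", "fell" and "called" mean an adjusted p under 0.05. The group fit had no block. The date fit held group and date. The comparison of dates between groups used 1 mean for each group at the first and at the later dates. Array numbers, 3 in each group, limit the precision. Same-numbered arrays carry the same date in the labels, and their deviations from the group means correlated at 0.442, 0.212 and 0.283, so the date was also used as a block. The crossed pairs of replicates 2 and 3 gave 0.309 and 0.235, so the deviations did not tell those pairs apart.

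The members and lists were chosen with earlier results of these data known. Described with all their array values were the genes called in any comparison and, in each class, the 2 with the largest group difference and the 1 with the largest date difference, and further members where a sentence turns on them. Alternatives were no background correction, the authors' log2 table, an offset of 50, a median shift, the mean of all probes, no detection filter, detection on all 6 arrays, array weights, each array left out, both first-date arrays left out, the date as a block, the later dates as 1 level, and the methods' t-test. Promoter windows came from RefSeq (GRCm38.p6), and 31 of the 45 genes had one. Plots used matplotlib 3.10.9 under Python 3.11.15.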

Additional observations from a re-analysis of the deposited data

Results flagged for a closer look

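Some probes of matrix genes that the comparisons leave out were detected on 2 arrays labelled 4T1-MMP3lo and on 0 arrays of 4T1-SC. One is a probe of Dcn (decorin), at 4.35, 4.41 and 4.36 in 4T1-SC and 4.55, 5.00 and 5.08 on the arrays labelled 4T1-MMP3lo, detected on 2 of them. A further probe of Col6a1 measured 4.50, 4.46 and 4.39 against 4.32, 4.90 and 5.23, detected on 2. A probe of Tnc measured 4.47, 4.59 and 4.46 against 4.50, 4.80 and 4.81, detected on 2, while another left-out probe of Tnc was detected on 2 arrays of 4T1-SC and on 0 of the others. All of these lie close to background, and no test was made of them.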

How the results depend on the processing

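Between groups, 1 matrix gene was called, with 1.09% of all genes called. There were 0 with no background correction or the authors' log2 table (0.128% of all genes each), an offset of 50 (0.407%) and a median shift (1.11%). There were also 0 with no detection filter (0.157%), detection on all 6 arrays (0.617%) and the methods' t-test (0.0%). That t-test gave 6 at an unadjusted p under 0.05. The limma fit itself gave 10 at an unadjusted p under 0.05. The date as a block gave 3 (2.08% of all genes). Array weights gave 16, with 33.2% of all genes called, against 1.09% without weights. Leaving out arrays gave 0 to 11, with 8 without 4T1-SC replicate 1 (10.7% of all genes called) and 11 without both arrays of replicate 1 (10.8%). Without any one of the arrays other than 4T1-SC replicate 1 it was 0 (0.0% to 0.727%). Between dates, 2 were called, with 0.481% of all genes called. There was 1 for no background correction and the authors' log2 table (0.139% each), a median shift (0.246%) and array weights (0.267%). The mean of all probes gave 4 (0.92%), no detection filter 0 (0.0%) and the later dates as 1 level 7 (3.2%). An offset of 50 gave 3, Lamb3, Fn1 and Ecm1 (0.546%). With 1 later-date array left out there were 0 or 1 (0.0642% to 0.353%). Leaving out a first-date array leaves that date with 1 array, so no count is given here. For the comparison of dates between groups, 0 were called (0.877% of all genes), with 1 (Col4a5) for a median shift (2.4%). Leaving out a later-date array leaves 1 group with 1 array at the first and 1 at the later dates, so no count is given. Leaving out either first-date array gives that comparison no value. The causes were not tested.

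Col7a1 kept its direction in every alternative run, from −2.02 to −1.42 (adjusted p 1.64e-05 to 0.272), as did Tnc between groups (−2.07 to −0.93) and Tnc (−2.05 to −1.13) and Ecm1 (−1.69 to −1.47) between dates. The median date difference stayed between −0.62 and −0.27, the latter with no detection filter. Over the single genes and alternatives, 18 group values and 13 date values changed sign, all for genes not called. With array weights the group difference was 0.34 for Lamb1, −0.06 for Lamc1, −0.23 for Hspg2, −0.19 for Plod1 and 0.05 for Plod2, and Lamc1 was −0.07 with the mean of all probes. Thbs1 was −0.03 between dates with a median shift. With arrays left out, group differences ran from −0.34 to 0.02 for Lamb1, −0.14 to 0.23 for Lamc1, −0.11 to 0.40 for Hspg2, −0.64 to 0.05 for Fn1, −0.07 to 0.38 for Thbs1, −0.21 to 0.21 for Plod1 and −0.39 to 0.33 for Plod2. Date differences ran from −0.80 to 0.60 for Col5a1, −0.28 to 0.24 for Lamb1, −0.27 to 0.02 for Hspg2, −0.60 to 0.21 for Fbln2, −0.26 to 0.46 for Thbs1 and −0.82 to 0.26 for Sparc. Signal near background limits Fbln1, Loxl1 and Tgfbi, and other members too. Without background correction the group differences of Fbln1, Loxl1 and Tgfbi were 0.27, 0.52 and 0.35, and the date difference of Tgfbi was −0.56. Col17a1 and Lamb2 also gave smaller group differences there, 0.34 and −0.20, against 0.77 and −0.41 in the main fit.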
